A study of Mus musculus with 18 samples.

Results

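Fc receptors bind the constant end of antibodies and let leukocytes respond to antigens that antibodies have coated. In mouse peritoneal eosinophils, 8 Fc receptor genes were chosen by name: Fcgr1, Fcgr2b, Fcgr3, Fcgr4, Fcer1g, Fcer2a, Fcrls and Fcgrt. Each of the 8 symbols matched 1 gene among the 55029 genes listed for the E. coli and IFN-γ libraries and among the 54232 listed for the IL-4 libraries.

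Eosinophils came from the peritoneal cavity of C57BL/6 mice of the NJ.1638 line, which carries an Il5 transgene, after T cells and B cells had been removed with Thy1.2 and B220 beads and purity had been checked by flow cytometry. All groups, controls included, therefore came from animals with excess IL-5, and the cells were cultured in DMEM with serum, either unstimulated or with heat-inactivated E. coli, IFN-γ, IFN-γ together with E. coli, or IL-4. RNA sequencing gave 18 libraries in 6 groups of 3. There are 2 sets. In the first, unstimulated libraries a to c belong with the E. coli, IFN-γ and IFN-γ with E. coli libraries, and in the second, the IL-4 set, unstimulated libraries d to f belong with the IL-4 libraries. The sets differ in how their counts were made, so each stimulus was compared within its own set, and the comparisons with E. coli, IFN-γ and IFN-γ with E. coli share unstimulated libraries a to c. The study calls its samples biological replicates, but the sources used here do not say whether each came from a separate animal, so the p-values measure only the spread between libraries.

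Total counts ranged from 1523808 to 2734041 in the 12 libraries of the first set and from 3625036 to 6482289 in the 6 libraries of the IL-4 set. The 12 libraries had a ceiling. The highest count of any gene in them lay between 4089 and 4095, just under 4096, the number of different 6-base sequences, whereas the highest counts in the IL-4 set lay between 87377 and 191131. The paper names the CEL-Seq2 protocol, with minor changes, for library preparation. The sources used here do not say whether molecular identifiers were collapsed. Close to the ceiling, counts hardly moved with depth: the counts of B2m lay between 4040 and 4092 while library totals spanned a 1.79-fold range. Fcgr3, with 2524 to 3306 counts, reached 61.6% to 80.7% of the ceiling, and Fcer1g, with 1736 to 2977 counts, reached 42.4% to 72.7%. Both genes are therefore also given after a correction for identifiers drawn more than once, an alternative chosen after seeing the data. The remaining 6 members reached at most 41.8% of the ceiling.

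**Figure D1:**
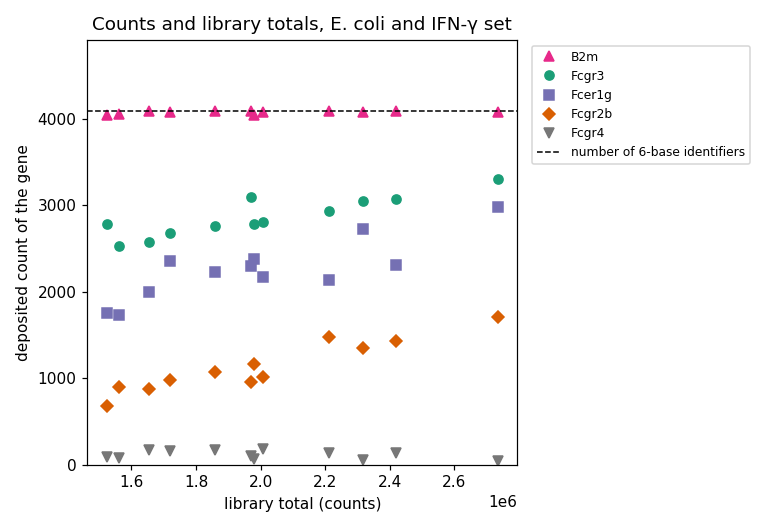
Deposited count (vertical axis) against library total (horizontal axis) for B2m, Fcgr3, Fcer1g, Fcgr2b and Fcgr4 in the 12 libraries that include E. coli and IFN-γ; the dashed line marks 4096, the number of different 6-base sequences. B2m lies at 4040 to 4092 counts in every library, Fcgr3 lies between 2524 and 3306, and Fcgr4 stays between 48 and 178.

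Unstimulated library e stood apart from libraries d and f. The chi-square statistic per gene between replicates was 22.0 to 23.7 for pairs with library e, against 3.73 to 7.86 for the other pairs of the IL-4 set. Pairs of the other set had 1.64 to 6.04. For the same relative spread this statistic grows with counts, so the ranges of the 2 sets are not comparable. Library e was the deepest, with 6482289 counts. IL-4 library 2, with 5909700, had 3.73 and 5.25 in its pairs with IL-4 libraries 1 and 3. Why library e stood apart was not tested. Results of the IL-4 comparison that change without library e are given both ways.

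The classical receptors for IgG are sorted by what they signal. Fcgr1 encodes the high-affinity activating receptor, Fcgr3 and Fcgr4 encode activating receptors of lower affinity, and all of them signal through the common γ chain encoded by Fcer1g, whose immunoreceptor tyrosine-based activation motif recruits the kinase Syk. Fcgr2b encodes the inhibitory receptor, which recruits the phosphatase SHIP-1, the product of Inpp5d. Fcer2a encodes the low-affinity IgE receptor typical of B cells, Fcgrt the heavy chain of the neonatal Fc receptor, which recycles IgG and pairs with B2m, and Fcrls a receptor-like protein with a scavenger receptor domain that is best known from microglia.

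In GRCm38, 4 members lie within 275749 bases of chromosome 1: Fcgr2b (ENSMUSG00000026656, 170958617 to 170976547, minus strand), Fcgr4 (ENSMUSG00000059089, 171018920 to 171029761, plus strand), Fcgr3 (ENSMUSG00000059498, 171051174 to 171064935, minus strand) and Fcer1g (ENSMUSG00000058715, 171229572 to 171234365, minus strand). Fcgr1 (ENSMUSG00000015947, 96282909 to 96293969) and Fcrls (ENSMUSG00000015852, 87250758 to 87263738) are on the minus strand of chromosome 3. Fcgrt (ENSMUSG00000003420, 45092990 to 45103851) is on the minus strand of chromosome 7 and Fcer2a (ENSMUSG00000005540, 3681737 to 3694175) on that of chromosome 8. Transcripts of Fcgr2b and Fcgr3 share a stretch of 509 bases at 96.5% identity. Fcgr2b also shares 259 bases with Cplx2 at 99.6%, 202 with Rab3c at 97.03% and 202 with Gm47409 at 96.5%, and it overlaps the antisense gene Gm38204 over 155 exon bases. Whether reads were counted by strand is not given in the sources used here, so counts of Fcgr2b carry both uncertainties. The stretch shared with Fcgr2b bears on counts of Fcgr3 as well, and so on the ratio of activating to inhibitory receptors.

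Of the 8 members, 7 were tested in each fit; Fcer2a fell below the filter on low counts. Levels are CPM, counts scaled to library size, after TMM normalization, given as mean ± SD with n = 3 libraries, and members were called at an adjusted p under 0.05 (edgeR's quasi-likelihood test, Benjamini-Hochberg over all genes tested). E. coli changed 1 member, where 30.2% of all genes tested were called. IFN-γ changed 3 members, where 31.6% of all genes were called. IFN-γ with E. coli changed 4 members, where 49% of all genes were called. IL-4 changed 2 members, where 10.3% of all genes were called. In bulk RNA, fewer cells of a type and less RNA per cell cannot be told apart.

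**Figure D2:**
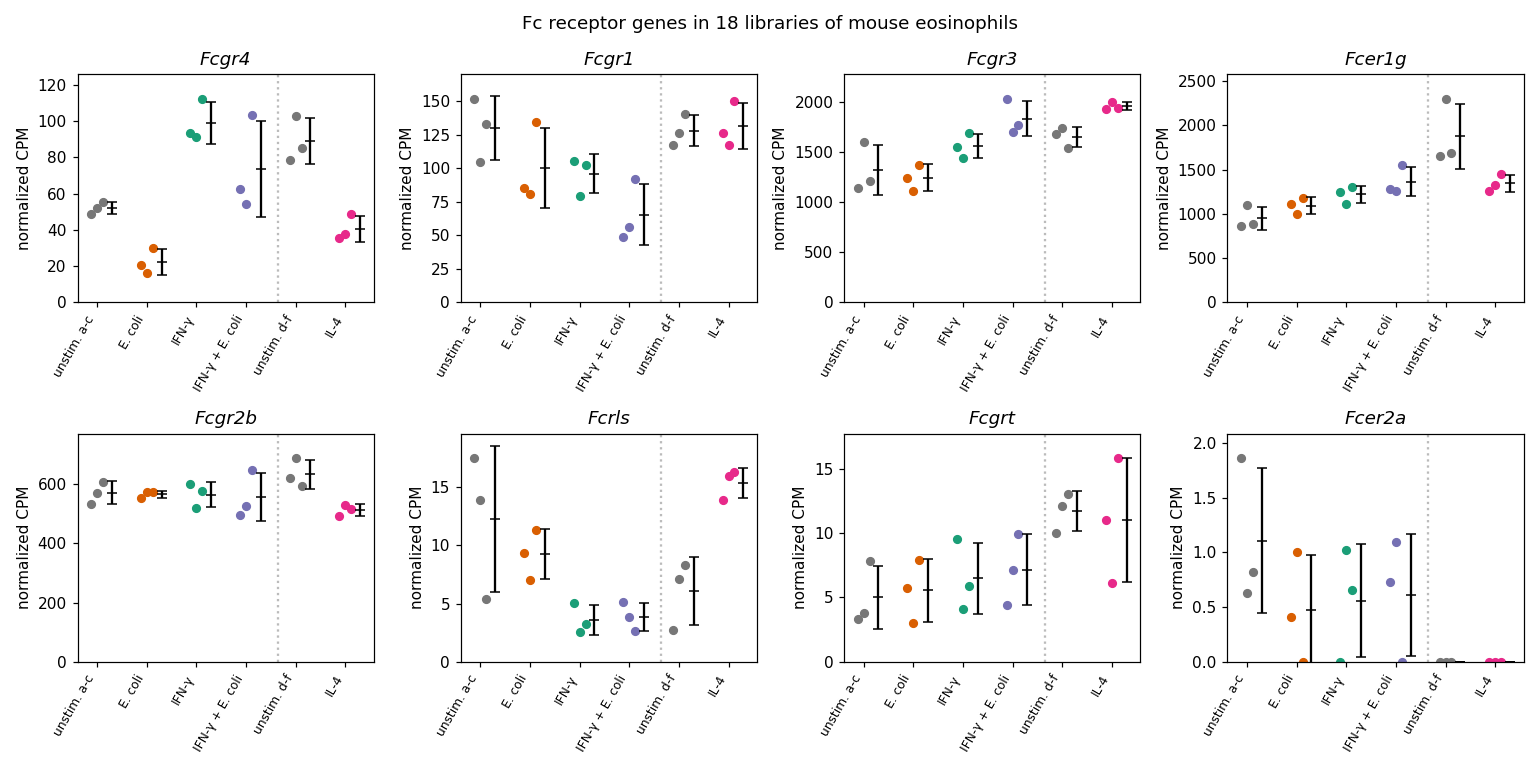
Normalized level in CPM (vertical axis) of each of the 8 members in every library, by group, with the mean and SD over 3 libraries; levels of the 12-library set and of the IL-4 set are not comparable. Fcgr4 is at 16.0 to 30.1 with E. coli, 91.2 to 112 with IFN-γ and 48.8 to 55.3 in the matching unstimulated libraries, and Fcer2a is at or near 0 throughout.

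Fcgr4 was lower with E. coli and higher with IFN-γ. Its level was 48.8, 52.0 and 55.3 CPM in unstimulated libraries a, b and c, and 20.4, 16.0 and 30.1 in E. coli libraries 1 to 3. It was 93.5, 91.2 and 112 in IFN-γ libraries 1 to 3 and 62.8, 54.2 and 104 in IFN-γ with E. coli libraries 1 to 3. Every E. coli library lay below, and every IFN-γ library above, all unstimulated libraries, while IFN-γ with E. coli library 2 fell among the unstimulated ones and library 3 among the IFN-γ ones. Group means ran from 22.2 ± 7.20 with E. coli through 52.0 ± 3.27 unstimulated and 73.5 ± 26.3 with IFN-γ and E. coli to 99.1 ± 11.7 with IFN-γ. The difference from unstimulated cells on the log2 scale was −1.26 ± 0.23 (SE) with E. coli (adjusted p = 0.000415) and 0.92 ± 0.21 with IFN-γ (adjusted p = 0.00199). With IFN-γ and E. coli it was 0.49 ± 0.21 and missed the threshold (adjusted p = 0.0632). That value rests on library 3: it became 0.69 without library 2 (adjusted p = 0.0165), 0.61 without library 1 (adjusted p = 0.0402) and 0.18 without library 3, with adjusted p between 0.0149 and 0.464 over 11 alternatives.

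Fcgr4 was also lower with IL-4. Its level was 78.6, 103 and 85.1 CPM in unstimulated libraries d, e and f and 35.4, 37.6 and 48.7 in IL-4 libraries 1 to 3. The groups did not overlap, and the log2 difference was −1.14 ± 0.17 (SE), a fold of 0.453 (adjusted p = 0.0024). The calls of Fcgr4 with E. coli, IFN-γ and IL-4 held in each alternative tried, with the largest adjusted p at 0.00508, 0.0152 and 0.0234.

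Fcgr4 is known from neutrophils, monocytes and macrophages, so a list of 12 macrophage genes was read beside it. The paper used eosinophils above a set purity and describes the contaminants as mainly lymphocytes. The list's summed level, normalized as for the members, was 2457, 2438 and 2536 CPM in unstimulated libraries a to c, 2315, 2164 and 3246 in E. coli libraries 1 to 3, 3503, 3393 and 3706 in IFN-γ libraries 1 to 3, and 3625, 3890 and 4716 in IFN-γ with E. coli libraries 1 to 3. In the IL-4 set it was 4015, 4243 and 4874 in unstimulated libraries d to f and 3196, 3150 and 3519 in IL-4 libraries 1 to 3. E. coli libraries 1 and 2 lay below all unstimulated sums and library 3 above them. The gene that rose with E. coli was Cd14, whose mean went from 423.7 to 726.3 CPM, while the median log2 difference of the list was −0.501, and with IL-4 that median was −0.4659. The list's called genes moved in the direction of Fcgr4 more often than against it, though Fcgr4 was not called with IFN-γ and E. coli. With E. coli 4 of 12 fell and 1 rose, where 30.2% of all genes tested were called. With IFN-γ 6 rose and 1 fell, where 31.6% were called. With IFN-γ and E. coli 4 rose and 1 fell, where 49% were called. With IL-4 6 fell and 0 rose, where 10.3% were called. The library highest in the list's sum within its group was also highest in Fcgr4 in unstimulated libraries a to c, where it was c, and in all stimulated groups, where it was library 3, but not in unstimulated libraries d to f. The most abundant genes of the list were Adgre1, which eosinophils also express, and Cd14 in the 12 libraries, and Cd14 or C1qb in the IL-4 set. Adgre1 and Cd14 had up to 2739 and 2519 counts in the 12 libraries, so the ceiling touches these sums as well. No gene of the list was at 0 in any library.

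A list of 6 neutrophil genes had sums far below those of the macrophage list, and its genes did not move together. Its summed level was 42.1, 35.5 and 45.0 CPM in unstimulated libraries a to c, 157, 129 and 211 with E. coli, 71.09, 67.15 and 79.13 with IFN-γ, then 70.85, 82.73 and 110.1 with the combined stimulus. It was 18.9, 19.7 and 22.3 in unstimulated libraries d to f and 41.5, 40.4 and 67.4 with IL-4. The sums of all stimulated groups lay above their unstimulated libraries, but few genes carried this. With E. coli 2 of the 3 genes tested rose, S100a8 and Cxcr2, and Ly6g was not called. With IFN-γ, and likewise with the combined stimulus, S100a8 and Ly6g rose and Cxcr2 fell. With IL-4 1 of 4 was called, Cxcr2, whose mean went from 3.76 to 32.05 CPM. The part of macrophages and neutrophils in these results was not tested.

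Among the stimulated cells, Fcgr4 was higher with IFN-γ than with E. coli by 2.19 ± 0.23 on the log2 scale (adjusted p = 4.89e-07), and higher with IFN-γ and E. coli than with E. coli alone by 1.75 ± 0.23 (adjusted p = 9.72e-06). In both comparisons the groups did not overlap. Of the 12 macrophage genes, 6 were higher and 0 lower in each, where 25.5% and 32.8% of all genes were called. Their median log2 differences were 0.80 and 0.88, and the part of macrophages was not tested. Between IFN-γ with E. coli and IFN-γ alone Fcgr4 differed by −0.43 ± 0.21 (adjusted p = 0.194), and with 1 library left out by −0.77 to −0.24. The value of −0.77 came without IFN-γ with E. coli library 3 (adjusted p = 0.00843, the lowest of 12 alternatives that reached up to 0.575). With the replicate number as a block the difference was −0.48 and passed (adjusted p = 0.0371). The interaction, the departure of the joint log2 change from the sum of the single changes, was 0.83 with a 95% interval of 0.18 to 1.48 (adjusted p = 0.158). With 1 library left out it ran from 0.47 to 1.08. The value of 1.08 came without E. coli library 3 (adjusted p = 0.0417, the lowest of 16 alternatives that reached up to 0.399).

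Fcer1g, the signalling chain shared by the activating receptors, was higher in the presence of IFN-γ. Its level was 863, 1100 and 883 CPM in unstimulated libraries a to c, 1114, 995 and 1175 with E. coli, and 1248, 1114 and 1303 with IFN-γ. It was 1281, 1260 and 1550 in IFN-γ with E. coli libraries 1 to 3. All libraries that received IFN-γ lay above all unstimulated ones, and unstimulated library b lay above E. coli library 2. The log2 difference was 0.37 ± 0.13 (SE) with IFN-γ (adjusted p = 0.0342) and 0.52 ± 0.13 with IFN-γ and E. coli (adjusted p = 0.00209). The IFN-γ call was lost without unstimulated library a (0.30, adjusted p = 0.136), unstimulated library c (0.32, adjusted p = 0.112), IFN-γ library 1 (0.36, adjusted p = 0.0851) or IFN-γ library 3 (0.34, adjusted p = 0.103), with adjusted p between 0.005 and 0.136 over 11 alternatives.

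With E. coli the deposited counts of Fcer1g gave a log2 difference of 0.21 ± 0.13 (adjusted p = 0.235). Corrected for identifiers drawn more than once, the difference was 0.43 ± 0.12 and passed the threshold (adjusted p = 0.00982), and without unstimulated library b it was 0.35 (adjusted p = 0.0448). The adjusted p ran from 0.00982 to 0.513 over 11 alternatives. After the same correction Fcer1g was higher by 0.40 ± 0.12 with IFN-γ (adjusted p = 0.0158) and by 0.58 ± 0.12 with IFN-γ and E. coli (adjusted p = 0.000617). The combined stimulus lay above E. coli alone in every library, at 0.32 ± 0.13 on the log2 scale, but missed the threshold (adjusted p = 0.0615). After the correction this difference was 0.14 ± 0.12 (adjusted p = 0.387), whereas DESeq2 on the deposited counts called it at 0.33 (adjusted p = 0.039). It was also called with the replicate number as a block, at 0.31 (adjusted p = 0.00383). Over 12 alternatives the adjusted p ran from 0.00383 to 0.387.

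With IL-4, Fcer1g had lower values, and whether it passed the threshold depended on the library left out, the filter on low counts and the test. Its level was 1649, 2303 and 1685 CPM in unstimulated libraries d to f and 1258, 1325 and 1453 in IL-4 libraries 1 to 3. The groups did not overlap, and unstimulated library e had the highest value. The log2 difference was −0.48 ± 0.14 (SE) and missed the threshold (adjusted p = 0.0585). It passed without library e (−0.31, adjusted p = 0.0276), without library d (−0.57, adjusted p = 0.038) and by DESeq2 (−0.49, adjusted p = 0.0216). It also passed without the filter on low counts (−0.51, adjusted p = 0.0037). Over 9 alternatives the adjusted p ran from 0.0037 to 0.227. The sums of the macrophage list stood as Fcer1g did: above the unstimulated libraries with IFN-γ and with the combined stimulus, overlapping them with E. coli and below them with IL-4. The part of macrophages in Fcer1g was not tested.

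Fcgr3, an activating receptor, was higher with IFN-γ and E. coli. Its level was 1144, 1600 and 1211 CPM in unstimulated libraries a to c, whereas it was 2030, 1695 and 1765 in IFN-γ with E. coli libraries 1 to 3. The groups did not overlap, although unstimulated library b, the shallowest of its group with 1562034 counts, came close to the stimulated libraries. The log2 difference was 0.47 ± 0.14 (SE; adjusted p = 0.00735), and 0.50 ± 0.11 after the identifier correction (adjusted p = 0.000749). With IFN-γ alone Fcgr3 stood at 1548, 1438 and 1687, which overlapped the unstimulated values, and the difference was 0.24 ± 0.14 (adjusted p = 0.19). Without unstimulated library b it was 0.43 (adjusted p = 0.0137), the lowest adjusted p of 11 alternatives that reached up to 0.505. E. coli alone gave 1243, 1105 and 1373 and a difference of −0.09 with a 95% interval of −0.37 to 0.20 (adjusted p = 0.682).

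The combined stimulus also exceeded E. coli alone in Fcgr3, by 0.56 ± 0.14 on the log2 scale (adjusted p = 0.0037), with no overlap between the groups, and by 0.49 ± 0.11 after the identifier correction (adjusted p = 0.00165). IFN-γ alone lay above E. coli alone by 0.33 ± 0.14, with no overlap, but missed the threshold (adjusted p = 0.0854). That difference passed with the compared groups alone (0.33, adjusted p = 0.0306) and with the replicate number as a block (0.33, adjusted p = 0.00462). After the identifier correction it was 0.19 ± 0.11 (adjusted p = 0.217). The corrected differences from unstimulated cells were 0.20 ± 0.11 with IFN-γ (adjusted p = 0.165) and 0.01 ± 0.11 with E. coli (adjusted p = 0.947), neither of them called. In the IL-4 set Fcgr3 was at 1673, 1734 and 1541 CPM in unstimulated libraries d to f and at 1923, 2000 and 1937 with IL-4. The groups did not overlap, but the log2 difference of 0.24 ± 0.10 was not called (adjusted p = 0.167). Without unstimulated library e it was 0.28 (adjusted p = 0.0362), with adjusted p up to 0.488 over 9 alternatives.

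Fcgr1, the high-affinity receptor, was lower when IFN-γ and E. coli were combined. Its level was 152, 105 and 133 CPM in unstimulated libraries a to c, whereas it was 48.9, 55.9 and 91.7 in IFN-γ with E. coli libraries 1 to 3. No library of the combined stimulus reached the unstimulated ones. The log2 difference was −0.998 ± 0.221 (SE), a fold of 0.501 (adjusted p = 0.00103), and it passed the threshold in each of 11 alternatives, with adjusted p up to 0.0102. With a single stimulus it was 85.3, 80.9 and 135 with E. coli and 106, 79.5 and 103 with IFN-γ. Both groups overlapped the unstimulated libraries, and the log2 differences of −0.40 ± 0.20 with E. coli (adjusted p = 0.157) and −0.45 ± 0.21 with IFN-γ (adjusted p = 0.111) were not called. E. coli library 3 made the E. coli difference smaller in size. Without that library it was −0.65 (adjusted p = 0.0185), the lowest adjusted p of 11 alternatives that reached up to 0.472. The IFN-γ value passed without the filter on low counts (adjusted p = 0.0286) and with the compared groups fitted alone (adjusted p = 0.0221), and its adjusted p reached up to 0.38 over 11 alternatives.

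Fcgr1 was lower with IFN-γ and E. coli than with E. coli alone, with a log2 difference of −0.60 ± 0.22 although the groups overlapped (adjusted p = 0.0459), a call that was lost after the identifier correction (adjusted p = 0.053), by DESeq2 and with its size factors (adjusted p = 0.0527 each), with the compared groups alone (adjusted p = 0.084) and without E. coli library 3 (−0.35, adjusted p = 0.232). It was likewise lost without IFN-γ with E. coli library 1 (−0.44, adjusted p = 0.187) or library 2 (−0.49, adjusted p = 0.175), and over 12 alternatives the adjusted p ran from 0.000394 to 0.232. In the IL-4 set Fcgr1 was at 117, 127 and 140 CPM in unstimulated libraries d to f and at 126, 118 and 151 with IL-4. These groups overlapped, and the log2 difference of 0.03 had a 95% interval of −0.27 to 0.34 (adjusted p = 0.904). The library highest in the macrophage list's sum was also highest in Fcgr1 with E. coli, the combined stimulus and IL-4 and in unstimulated libraries d to f, but not with IFN-γ or in unstimulated libraries a to c. With the combined stimulus, where Fcgr1 was lower, the mean of that sum went from 2477 to 4077 CPM, and most of this was Cd14, from 423.7 to 1394. Mertk, C1qb and Marco also rose, and Cd68 fell from 137.6 to 94.02 (adjusted p = 0.0413). The part of macrophages in Fcgr1 was not tested.

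Fcgr2b, the inhibitory receptor, was not called in any comparison. Its group means were 571 ± 38.5 CPM unstimulated, 566 ± 12.2 with E. coli, 565 ± 42.5 with IFN-γ, then 557 ± 80.9 with the combined stimulus, and all groups overlapped. The log2 differences from unstimulated cells were −0.01 with E. coli (95% interval −0.25 to 0.23), −0.01 with IFN-γ (−0.25 to 0.23) and −0.04 with the combined stimulus (−0.28 to 0.21). Over 11 alternatives each, these differences ran from −0.06 to 0.04, from −0.07 to 0.08 and from −0.14 to 0.07, so no direction can be given. In the IL-4 set its level was 621, 688 and 593 in unstimulated libraries d to f and 491, 529 and 517 with IL-4. Those groups did not overlap, but the log2 difference of −0.31 ± 0.11 missed the threshold (adjusted p = 0.112), as it did in each of 9 alternatives (adjusted p between 0.0974 and 0.347).

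The balance of activating to inhibitory receptors was read within each library as the log2 ratio of the summed counts of Fcgr1, Fcgr3 and Fcgr4 to those of Fcgr2b, which needs no scaling between libraries. With IL-4 the ratio was 2.08, 2.03 and 2.05 in libraries 1 to 3, against 1.59, 1.51 and 1.58 in unstimulated libraries d to f. The groups did not overlap and their means differed by 0.49 (two-sided exact permutation p = 0.1, Benjamini-Hochberg adjusted p = 0.267 over 4 comparisons), where 0.1 is the smallest p that 3 against 3 libraries allow. In the 12 libraries each stimulated group overlapped the unstimulated one in deposited counts. The mean log2 ratio was 1.39 ± 0.21 unstimulated, 1.26 ± 0.18 with E. coli (exact permutation p = 0.5), 1.63 ± 0.09 with IFN-γ (exact permutation p = 0.2) and 1.83 ± 0.26 with IFN-γ and E. coli (exact permutation p = 0.2). Most counts of the numerator are those of Fcgr3, which the ceiling touches in these libraries. After the identifier correction the log2 ratio was 2.696, 2.447 and 2.047 in IFN-γ with E. coli libraries 1 to 3, against 1.829, 2.036 and 1.622 in unstimulated libraries a to c. These groups no longer overlapped, though library 3 and unstimulated library b nearly met, and the means differed by 0.57 (exact permutation p = 0.1, not adjusted). The other stimulated groups still overlapped the unstimulated one, with differences of −0.04 with E. coli (exact permutation p = 1) and 0.26 with IFN-γ (exact permutation p = 0.2).

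**Figure D3:**
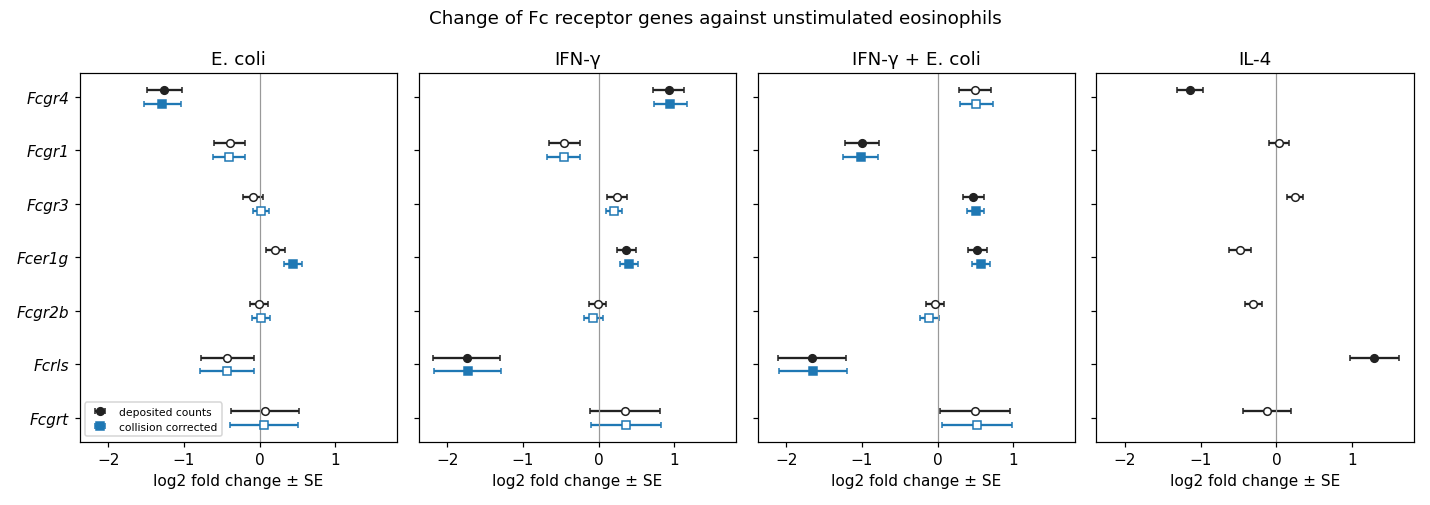
Log2 fold change ± SE (horizontal axis) of the 7 tested members (vertical axis) in the 4 comparisons with unstimulated cells, from deposited counts and, in the 12-library set, from counts corrected for identifiers drawn more than once; filled points were called at an adjusted p under 0.05. Fcgr4 lies at −1.26 with E. coli, 0.92 with IFN-γ, then −1.14 with IL-4, and the correction moves Fcer1g with E. coli from 0.21 to 0.43.

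Against unstimulated cells, Fcrls had the largest fold changes of the called members and the lowest counts. In the 12 libraries it had 4 to 47 counts. Its level was 17.5, 13.9 and 5.37 CPM in unstimulated libraries a to c, 9.38, 7.02 and 11.4 with E. coli, and 5.04, 2.56 and 3.27 with IFN-γ. It was 5.11, 3.84 and 2.64 in IFN-γ with E. coli libraries 1 to 3. All libraries that received IFN-γ lay below all unstimulated ones, the nearest of which was library c, while the E. coli group overlapped them. The log2 difference was −1.74 ± 0.44 (SE) with IFN-γ (adjusted p = 0.00541) and −1.66 ± 0.45 with IFN-γ and E. coli (adjusted p = 0.00493). Both calls were lost without unstimulated library a, with differences of −1.31 (adjusted p = 0.0597) and −1.23 (adjusted p = 0.0503), the highest adjusted p of 11 alternatives each. With E. coli the difference was −0.43 ± 0.35 (adjusted p = 0.391).

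With IL-4, Fcrls was higher. Its level was 2.78, 7.12 and 8.31 CPM in unstimulated libraries d to f and 13.9, 16.0 and 16.3 in IL-4 libraries 1 to 3, from 10 to 96 counts. The groups did not overlap, and the log2 difference was 1.29 ± 0.33 (SE), a fold of 2.45 (adjusted p = 0.0318). The call was lost without IL-4 library 1 (1.38, adjusted p = 0.0908), library 2 (1.27, adjusted p = 0.12) or library 3 (1.24, adjusted p = 0.112). The adjusted p ran from 0.000611 to 0.12 over 9 alternatives. An earlier study gave bone marrow-derived eosinophils IL-4 (or IL-33) for shorter times, and the paper lists Fcrls among the transcripts shared with it. Among stimulated libraries, Fcrls was lower than with E. coli, with log2 differences of −1.32 ± 0.46 with IFN-γ (adjusted p = 0.0409) and −1.23 ± 0.47 with IFN-γ and E. coli (adjusted p = 0.0489).

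The last 2 calls depended on single libraries. The first was lost by DESeq2 (adjusted p = 0.0574) and without E. coli library 1, E. coli library 3, IFN-γ library 2 or IFN-γ library 3, with adjusted p between 0.0857 and 0.155, and over 12 alternatives the adjusted p ran from 0.0098 to 0.155. The second was lost after the identifier correction (adjusted p = 0.0553), by DESeq2 (adjusted p = 0.0725), with DESeq2's size factors (adjusted p = 0.0504) and without E. coli library 1, E. coli library 3 or any library of IFN-γ with E. coli, and over 12 alternatives the adjusted p ran from 0.0141 to 0.134. The genes of the macrophage list that changed moved mostly against Fcrls in the IL-4 and the IFN-γ comparisons. The B cell list moved with it there, with no overlap between the groups' sums. Of its 5 genes tested, 4 were lower with IFN-γ, where 31.6% of all genes were called. With IL-4 3 of 5 were higher, where 10.3% were called. With E. coli 5 of 5 were lower while Fcrls was not called, and with the combined stimulus, where Fcrls was lower, none was called by edgeR. The part of macrophages and B cells was not tested.

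Fcgrt and Fcer2a were near the limit of detection in the 12 libraries, where a count of 3, the limit that a count of 0 allows, corresponds to 1.10 to 1.97 CPM by library total, without TMM. This limit covers counting error only. Fcgrt had 6 to 19 counts, and group means of 5.0 ± 2.48 CPM unstimulated, 5.54 ± 2.45 with E. coli, 6.50 ± 2.76 with IFN-γ, then 7.13 ± 2.76 with the combined stimulus. In the IL-4 set it had 36 to 73 counts, and means of 11.7 ± 1.55 unstimulated and 11 ± 4.83 with IL-4. All groups overlapped, and no difference from unstimulated cells was called. The 95% interval of the log2 difference ran from −0.88 to 1.01 with E. coli, −0.62 to 1.31 with IFN-γ, −0.47 to 1.46 with IFN-γ and E. coli, and −0.84 to 0.59 with IL-4.

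Fcer2a had 0 to 5 counts in the 12 libraries and 0 in all 6 libraries of the IL-4 set, which allows up to 0.463 to 0.828 CPM by library total there. A list of 8 B cell genes was read beside it, since B cells are the known source of this receptor and were depleted with B220 beads. The list's summed normalized level was 221, 204 and 119 CPM in unstimulated libraries a to c, 41.6, 46.8 and 77.5 with E. coli, 102, 64.6 and 61.5 with IFN-γ, then 124.9, 136.4 and 132.5 with the combined stimulus. The E. coli and IFN-γ groups lay below all unstimulated libraries, and the combined stimulus overlapped them. It was 27.5, 24.2 and 45.5 in unstimulated libraries d to f and 70.2, 63.0 and 75.4 with IL-4. Ighm was its most abundant gene in every library, and Cr2, Pax5 or Ighd was at 0 in 12 of 18 libraries. Of the 5 list genes tested, 5 fell with E. coli, 4 fell with IFN-γ and 3 rose with IL-4, while none was called by edgeR with IFN-γ and E. coli, where their median log2 difference was −0.426.

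The eosinophil genes were read in the same way. The list of 9 summed to a mean of 4322 CPM, normalized, in unstimulated libraries a to c, 3389 with E. coli, 4040 with IFN-γ, then 3097 with the combined stimulus, and to 5487 in unstimulated libraries d to f and 5122 with IL-4. The sums with IFN-γ and with IL-4 overlapped the unstimulated ones, which does not describe the single genes. Of 6 genes tested, 1 rose and 2 fell with E. coli, 0 rose and 4 fell with IFN-γ, and 1 rose and 4 fell with the combined stimulus; with IL-4 4 of 9 rose and 1 fell. Ccr3 and Alox15 were the most abundant, with up to 3576 and 3732 counts in the 12 libraries, close enough to the ceiling to compress the sums there. Epx, the eosinophil peroxidase gene, had 0 to 4 counts in the 12 libraries and 5 to 19 in the IL-4 set. Lists of T and NK cell and of dendritic cell genes summed to means of 0.988 to 3.84 and 5.93 to 12.99 CPM over the 6 groups. The T and NK cell gene Klrb1c was at 0 in all 18 libraries, and the neutrophil gene Elane in 10.

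The list of 7 mast cell and basophil genes was higher with every stimulus. Its sums had means of 29.0 CPM in unstimulated libraries a to c, 164.6 with E. coli, 186.8 with IFN-γ, then 537.5 with the combined stimulus, and of 63.1 in unstimulated libraries d to f and 97.7 with IL-4, with no overlap between stimulated and unstimulated libraries. Most of each sum was Hdc, and Mcpt8 was at 0 in 17 of 18 libraries. Of 3 genes tested, 1 rose with E. coli, 2 with IFN-γ, 3 with the combined stimulus and 1 with IL-4. Fcer1g was also higher with IFN-γ and with the combined stimulus, but had lower values with IL-4. Fcgr3 was also higher with the combined stimulus. The part of mast cells and basophils in Fcer1g and Fcgr3 was not tested.

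Whether responses differed was tested across the library sets, each response taken within its own set. The log2 change with IL-4 minus that with IFN-γ was called for 3 members, where 27.8% of all genes were called, and the change with IL-4 minus that with IFN-γ and E. coli for 4 members, where 39.2% were called. The change with IL-4 minus that with E. coli was called for 2 members, where 28.1% of all genes were called. The change of Fcgr4 with IL-4 exceeded that with E. coli by 0.10, with a 95% interval of −0.53 to 0.72 (adjusted p = 0.853). Within the 12 libraries, 2 members were called between IFN-γ and E. coli, where 25.5% of all genes were called, and 4 between IFN-γ with E. coli and E. coli, where 32.8% were called.

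Adding E. coli to IFN-γ changed 0 members by edgeR's quasi-likelihood test, where 12.2% of all genes were called. At an unadjusted p under 0.05 there were 2, Fcgr1 at −0.55 ± 0.23 on the log2 scale and Fcgr4 at −0.43 ± 0.21, and DESeq2 called 0. Fcgr1 passed the threshold without the filter on low counts (−0.58, adjusted p = 0.00643) and without IFN-γ with E. coli library 3 (−0.87, adjusted p = 0.0136). With the replicate number as a block, Fcgr1 (−0.58, adjusted p = 0.0211) and Fcgr4 (−0.48, adjusted p = 0.0371) both passed. The adjusted p of Fcgr1 ran from 0.00643 to 0.371 over 12 alternatives. The interaction of IFN-γ and E. coli was called for 0 members, where 4.62% of all genes were called, with 1 member, Fcgr4, at an unadjusted p under 0.05 and 0 by DESeq2.

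Other genes of the receptor family were mostly at or near 0 counts. Of 12 such genes, 9 were too low to be tested: Fcamr and Fcrl6 had 0 counts in all libraries, and Fcer1a and Ms4a2, subunits of the high-affinity IgE receptor, had 0 to 4 and 0 to 2 counts. Fcmr, Fcrl1, Fcrl5, Fcrlb and Pigr had at most 10 counts. The 3 tested were Trim21, which encodes a cytosolic Fc receptor, Fcrla, a B cell protein of the family, and B2m. Trim21 fell with E. coli by 0.40 ± 0.13 on the log2 scale (adjusted p = 0.0293). It rose by 0.89 ± 0.13 with IFN-γ (adjusted p = 3.26e-05), by 0.60 ± 0.13 with IFN-γ and E. coli (adjusted p = 0.000902) and by 0.70 ± 0.17 with IL-4 (adjusted p = 0.0285), with no overlap between groups in any of these comparisons. The E. coli call was lost in 6 of 11 alternatives, DESeq2 among them (adjusted p = 0.0574), with adjusted p up to 0.139, and the IL-4 call in 5 of 9, among them those without any 1 of the IL-4 libraries, with adjusted p up to 0.148.

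Fcrla fell with every stimulus of the 12-library set, by 2.23 ± 0.38 with E. coli (adjusted p = 0.000211), 1.15 ± 0.36 with IFN-γ (adjusted p = 0.02) and 1.46 ± 0.38 with IFN-γ and E. coli (adjusted p = 0.00393) on the log2 scale, from 4 to 33 counts. The IFN-γ call was lost without unstimulated library b, IFN-γ library 2 or IFN-γ library 3, with adjusted p up to 0.106. The summed level of the B cell list was lower with E. coli and IFN-γ and overlapped the unstimulated libraries with the combined stimulus, and its part was not tested. B2m was called higher with IFN-γ and E. coli at 0.45 ± 0.18 (adjusted p = 0.0471), but its counts there and in the controls lay within 4041 to 4091, at the ceiling, where counts hardly moved with depth, and the call was lost in 5 of 11 alternatives (adjusted p up to 0.22). In the IL-4 set, without a ceiling, B2m had 31230 to 61161 counts and its difference was not called.

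Genes that carry the signal of the receptors were described from a list of 33, of which 30 were tested in the 12-library set and 29 in the IL-4 set. With E. coli 4 rose and 6 fell, where 30.2% of all genes tested were called, with a median log2 difference of −0.03 beside −0.02 over all genes tested. The genes that rose were the Src family kinase gene Fgr at 0.89 ± 0.11 (adjusted p = 7.37e-06), the phosphatase gene Ptpn11 at 0.71 ± 0.10, the adaptor gene Gab2 at 0.69 ± 0.17 and the PI3-kinase subunit gene Pik3cd at 0.51 ± 0.11. The largest falls were those of Cd79b at −1.82 ± 0.32 and Cd79a at −1.48 ± 0.23, chains of the B cell receptor with the same activation motif, followed by Vav3 at −0.69 ± 0.17 and Pik3r5 at −0.66 ± 0.16. Cd79a and Cd79b are also on the B cell list.

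With IFN-γ 3 of the 30 signalling genes rose and 6 fell, where 31.6% of all genes were called, with a median of −0.05 beside −0.03 over all genes. Gab2 at 0.75 ± 0.17, Fgr at 0.74 ± 0.11 and the kinase gene Syk at 0.31 ± 0.10 (adjusted p = 0.0292) were higher. The call of Syk was lost without unstimulated library a (adjusted p = 0.125) or IFN-γ library 3 (adjusted p = 0.107). Cd79b, Cd79a, the PI3-kinase regulatory gene Pik3r1 at −0.78 ± 0.15 and the inhibitory adaptor gene Dok3 at −0.74 ± 0.12 led the falls. With IFN-γ and E. coli 6 rose and 8 fell, where 49% of all genes were called, with a median of −0.12 beside −0.04. Gab2 at 1.23 ± 0.17, Fgr at 0.83 ± 0.11, the adaptor gene Shc1 at 0.67 ± 0.19 and the ubiquitin ligase gene Cbl at 0.39 ± 0.11 led the rises. Dok3 at −1.22 ± 0.12, Dok2 at −1.04 ± 0.12, Pik3r1 at −1.03 ± 0.15 and Pik3r5 at −0.98 ± 0.18 led the falls (adjusted p at most 0.000149).

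Between IFN-γ with E. coli and IFN-γ alone, 3 signalling genes were higher and 5 lower, where 12.2% of all genes were called. The higher ones were Cd79b at 1.10 ± 0.35 (adjusted p = 0.0492) and Cd79a at 0.84 ± 0.26 (adjusted p = 0.0413), both on the B cell list, of which 3 of 5 genes rose here, and Ptpn11 at 0.42 ± 0.11 (adjusted p = 0.0145). The falls were led by the kinase gene Btk at −0.67 ± 0.12 (adjusted p = 0.0012), Dok3 at −0.48 ± 0.13, Dok2 at −0.47 ± 0.13 and Inpp5d, the partner of the inhibitory receptor, at −0.43 ± 0.13 (adjusted p = 0.0369).

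Of the calls named above, only that of Btk held in all 12 alternatives. That of Cd79b was lost in 8 of them, by DESeq2 (adjusted p = 0.0909) and without any 1 library of either group among them, and that of Cd79a in 5, also by DESeq2 (adjusted p = 0.0516). Those of Ptpn11, Dok3, Dok2 and Inpp5d were lost in 4, 3, 4 and 5, with adjusted p up to 0.106, 0.0873, 0.0907 and 0.197. With IL-4 2 of 29 rose and 2 fell, where 10.3% of all genes were called, with a median of −0.12 beside 0.0006 over all genes. Btk at 0.67 ± 0.11 (adjusted p = 0.00383) and Cd79b at 1.44 ± 0.35 (adjusted p = 0.0275) were higher. Tyrobp, an adaptor with the same activation motif as the common γ chain, and Prkcd, a protein kinase C gene, were both lower at −0.43 ± 0.12 (adjusted p = 0.0457 and 0.0408). Of these, Btk held in all 9 alternatives. The calls of Tyrobp and Prkcd were lost without unstimulated library f or any 1 of the IL-4 libraries, with adjusted p up to 0.196 and 0.157, and that of Cd79b without unstimulated library d or any 1 of the IL-4 libraries, with adjusted p up to 0.116. In these comparisons the groups of each named signalling gene did not overlap.

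As a description, the genes whose log2 level followed each member most closely over the 12 libraries were named by Pearson's r. These libraries share 4 groups and differ in depth, so r mixes differences between groups with those within them. Fcgr4 went with Ctss at 0.98, H2-M3 at 0.98 and Slfn1 at 0.97, and the identifier correction left these values at 0.98, 0.98 and 0.97. Fcgr1 went with Slc28a2 at 0.95, Tram1 at 0.93 and Apol9b at 0.92, and Fcrls with Hint3 at 0.96, Flot1 at 0.93 and Smim26 at 0.93. For Fcgr3 the leading genes were mt-Nd4, Fth1 and Srgn, all at 0.98, but these had 3301 to 4094 counts and the correction lowered r to 0.82, 0.81 and 0.78. Fcer1g went with Rab5c at 0.97 and Vdac3 at 0.97, which became 0.89 and 0.88. For Fcgr2b, Nfyc at 0.85, Abhd10 at 0.82 and Snx19 at 0.81 led, with 0.82, 0.75 and 0.76 after the correction, and for Fcgrt, Il18 at 0.82, Pmpcb at 0.80 and Urgcp at 0.79.

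Promoter windows of 300 bases from RefSeq on GRCm38.p6 were found for 8 of 8 members, 11 windows in all, and searched on both strands for 3 motifs. TTC followed by GAA with 4 bases between them (STAT6 type) occurs in 6.95% of all 32851 windows, GAGGAA (ETS or PU.1 type) in 28.3% and GAAANNGAA (IRF type) in 8.56%. A window without a match lacks these letters, and nothing more follows from it. The windows of Fcer1g, Fcgr2b and Fcgrt held none of these motifs, the 2 windows of Fcgr3, which overlap almost wholly, held GAGGAA at the same single site, and 1 of the 3 windows of Fcer2a held the STAT6 type. The windows of the members that changed most are printed with the matched letters in capitals, read 5′ to 3′ on the strand of the gene. The window of Fcgr4, at chr1:171018676-171018975 on the plus strand, has the IRF type at position 178 and GAGGAA on the opposite strand at position 229. That of Fcgr1, at chr3:96293920-96294219 on the minus strand, has GAGGAA on the opposite strand at position 196, and that of Fcrls, at chr3:87263475-87263774 on the minus strand, has GAGGAA at position 107. Positions count from 1 at the 5′ end, these matches do not overlap, and a match is a description of letters only.
Fcgr4: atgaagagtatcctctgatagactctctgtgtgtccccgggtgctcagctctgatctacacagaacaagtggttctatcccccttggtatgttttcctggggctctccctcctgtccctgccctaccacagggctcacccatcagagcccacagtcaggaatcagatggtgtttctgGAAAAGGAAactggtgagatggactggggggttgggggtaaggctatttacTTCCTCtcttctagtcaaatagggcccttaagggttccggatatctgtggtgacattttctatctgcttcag
Fcgr1: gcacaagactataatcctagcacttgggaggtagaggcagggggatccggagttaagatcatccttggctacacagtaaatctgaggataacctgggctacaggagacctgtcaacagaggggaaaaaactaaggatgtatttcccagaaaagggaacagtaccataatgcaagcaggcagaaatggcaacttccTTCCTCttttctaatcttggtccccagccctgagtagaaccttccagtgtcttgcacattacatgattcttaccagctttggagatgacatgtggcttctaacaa
Fcrls: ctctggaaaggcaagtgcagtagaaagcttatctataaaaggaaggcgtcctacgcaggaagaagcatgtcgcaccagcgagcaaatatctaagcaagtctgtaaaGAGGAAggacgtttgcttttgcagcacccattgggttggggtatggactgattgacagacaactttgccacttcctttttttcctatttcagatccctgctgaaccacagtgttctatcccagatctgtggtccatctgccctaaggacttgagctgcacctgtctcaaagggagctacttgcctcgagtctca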

How the data were processed

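RNA was measured in 18 libraries. The authors deposited counts of reads or tags per gene; the processing notes name fastp 0.20.1, TopHat2 2.1.0, STAR 2.7.2a and HTSeq 0.6.1, without saying which served which libraries. Entries for reads in no gene, 18.88% to 37.58% of all entries in the first set, and for ambiguous reads were left out of library sizes and tests. Each set was normalized by TMM and filtered with filterByExpr in edgeR 4.0.16 (R 4.3.3), tested with edgeR's quasi-likelihood test and adjusted by Benjamini-Hochberg over all genes tested. Responses of different sets were compared in a fit of all 18 libraries. The scripts were tested on simulated data. Alternatives were DESeq2 1.42.0 and its size factors, no filter on low counts, the compared groups alone, the replicate number as a block and each library left out. The correction for identifiers drawn more than once was chosen after seeing the data. Transcripts were compared with BLAST 2.17.0. Named genes were all members, up to 4 called genes per direction and comparison of the other Fc receptor and signalling lists with the largest fold, and the 3 genes most like each member; 1 of these genes and 1 planned promoter motif are not reported here. Genes named from the cell type lists were chosen after their values were seen. The members and lists were chosen with earlier results of these data known. A comparison of member proteins was not run.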

Additional observations from a re-analysis of the deposited data

Results flagged for a closer look

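These differences between responses were called when the difference itself was tested (edgeR's quasi-likelihood test, Benjamini-Hochberg over all genes tested), with 3 libraries in each group. The IL-4 response and the other responses come from library sets whose counts differ in kind. An identifier correction of the 12-library set, chosen after seeing the data, addresses its ceiling, and under it each of these differences was still called. Other differences between the sets were not tested. Of the 12 macrophage genes, 1 was higher and 6 lower for IL-4 minus IFN-γ. For IL-4 minus E. coli 1 was higher and 4 lower, and for IL-4 minus the combined stimulus 0 and 6. Of the 5 B cell genes tested, 4, 5 and 3 were higher in that order and 0 lower. In the same order 27.8%, 28.1% and 39.2% of all genes tested were called. The part of macrophages and B cells was not tested.

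For Fcgr4, the log2 change with IL-4 minus that with IFN-γ was −2.10 ± 0.28 (SE; adjusted p = 9.51e-06), and minus that with IFN-γ and E. coli it was −1.69 ± 0.29 (adjusted p = 7.67e-05). After the correction these were −2.11 and −1.65.

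For Fcer1g, the change with IL-4 minus that with IFN-γ was −0.88 ± 0.19 (adjusted p = 0.00156), minus that with E. coli −0.71 ± 0.19 (adjusted p = 0.00833), and minus that with IFN-γ and E. coli −1.07 ± 0.19 (adjusted p = 0.000151). After the correction these were −0.897 (adjusted p = 0.000951), −0.936 (adjusted p = 0.000591) and −1.05 (adjusted p = 0.000115).

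For Fcrls, the change with IL-4 minus that with IFN-γ was 3.00 ± 0.57 (adjusted p = 0.000414), and minus that with IFN-γ and E. coli 2.89 ± 0.57 (adjusted p = 0.000397). Minus that with E. coli it was 1.69 ± 0.50 (adjusted p = 0.0148), and 1.28 without unstimulated library a (adjusted p = 0.0998, the highest of 16 alternatives whose lowest was 0.00196). After the correction the 3 differences were 3.01, 2.94 and 1.70.

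For Fcgr1, the change with IL-4 minus that with IFN-γ and E. coli was 0.97 ± 0.29 (adjusted p = 0.00964), and 1.06 after the correction (adjusted p = 0.00641).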

How the results depend on the processing

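Among differences of single members, 331 kept direction and side of the threshold under alternatives other than leaving out a library, 13 newly passed it, 8 no longer passed it and 11 turned sign. With 1 library left out, the numbers were 544, 12, 22 and 52. For the named genes of the other Fc receptor and signalling lists, all called in the main fit, 409 kept direction and call under alternatives other than leaving out a library and 14 no longer passed the threshold; with 1 library left out, the numbers were 633 and 75. The ratio of activating to inhibitory receptors kept its sign in all 11 and 24 alternatives. The cause of a change was not tested, and low counts of Fcrls and Fcgrt limit their values.

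Log2 differences turned sign for Fcgr2b with E. coli (0.029 without the filter on low counts, 0.014 with the identifier correction chosen after seeing the data, 0.013 with the compared groups alone), with IFN-γ (0.005 with DESeq2's size factors, 0.005 by DESeq2, 0.016 without the filter) and with IFN-γ against E. coli (0.0065 with size factors, 0.0064 by DESeq2). The correction turned Fcgr3 with E. coli (0.0125), Fcer1g with IFN-γ against E. coli (−0.032) and Fcgr3 with IL-4 minus IFN-γ (0.0307).

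Members called became 2 with E. coli under the correction, 1 for IFN-γ with E. coli against IFN-γ without the filter, 2 for IFN-γ with E. coli against E. coli with size factors and 2 under the correction, and 1 for IFN-γ against E. coli by DESeq2. Without the filter, 1634 genes were called with IL-4.

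With 1 library left out, members called ran from 1 to 2 with E. coli, 1 to 4 with IFN-γ, 1 to 4 with IL-4, 0 to 2 for IFN-γ with E. coli against IFN-γ, 2 to 4 for it against E. coli, 1 to 2 for IFN-γ against E. coli, 0 to 1 for the interaction and 1 to 2 for IL-4 minus E. coli. All genes called ran from 483 to 1394 with IL-4, 740 to 1122 for IFN-γ with E. coli against IFN-γ and 266 to 562 for the interaction.

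Log2 differences with 1 library left out ran, with E. coli, from −0.059 to 0.043 for Fcgr2b, −0.18 to 0.095 for Fcgr3, −0.80 to 0.003 for Fcrls and −0.24 to 0.59 for Fcgrt; with IFN-γ, from −0.062 to 0.076 for Fcgr2b and −0.038 to 0.87 for Fcgrt; with the combined stimulus, from −0.14 to 0.068 for Fcgr2b. With IL-4 they ran from −0.086 to 0.10 for Fcgr1 and −0.47 to 0.175 for Fcgrt. For IFN-γ with E. coli against IFN-γ they ran from −0.16 to 0.0545 for Fcgr2b, −0.15 to 0.40 for Fcrls and −0.14 to 0.54 for Fcgrt, and against E. coli from −0.15 to 0.058 for Fcgr2b. For IFN-γ against E. coli they ran from −0.195 to 0.20 for Fcgr1, −0.0495 to 0.066 for Fcgr2b and −0.11 to 0.59 for Fcgrt. The interaction ran from −0.49 to 0.10 for Fcgr1, −0.17 to 0.045 for Fcgr2b, −0.19 to 0.012 for Fcer1g and −0.44 to 0.47 for Fcgrt. IL-4 minus IFN-γ ran from −0.20 to 0.061 for Fcgr3, and IL-4 minus E. coli from −0.11 to 0.35 for Fcgr4 and −0.74 to 0.095 for Fcgrt.

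Whether replicate numbers pair the samples was not settled. Of 9 correlations between libraries of the same number, 4 were over 0.1 (lowest −0.045, median 0.0986, highest 0.3306). Correlations between libraries of different numbers ran from −0.3767 to 0.2662. With the replicate number as a block, 2 members were called for IFN-γ with E. coli against IFN-γ, Fcgr1 (−0.58, adjusted p = 0.0211) and Fcgr4 (−0.48, adjusted p = 0.0371). For IFN-γ with E. coli against E. coli 5 were called, among them Fcer1g (0.31, adjusted p = 0.00383). For IFN-γ against E. coli 3 were called, among them Fcgr3 (0.33, adjusted p = 0.00462). In these 3 comparisons 1430, 3447 and 2750 genes were called in all.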
